A study of Mus musculus with 96 samples.

Results

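The lung bud of wild-type (WT) mouse embryos at the embryonic stage E11.5 was set against 7 other tissues of the same stage: heart, liver, pre-somitic mesoderm (PSM), forelimb, hindlimb, forebrain and midbrain. A gene was called lung-enriched when the lower of its male and female lung values was at least 2-fold above the highest of the 14 WT values of the other tissues, on the scale of FPKM + 1. FPKM is a level of fragments that is corrected for the length of the transcript and the size of the library. Of 28712 genes in the deposited table, 15768 exceeded 1 FPKM in at least 1 WT group and were tested, and 101 of them were lung-enriched (0.641%).

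RNA was sequenced as poly(A)-selected bulk RNA from C57BL/6J embryos, 96 libraries in all, made from 8 tissues, both sexes and 2 genotypes with 3 libraries per group. The genotypes were wildtype and a deletion of Firre, an X-linked long noncoding RNA locus; the deleted embryos are called ∆Firre here. The table used here holds 1 value per group of 3 libraries, so no spread between libraries was available, and no p-value is given; the 2 WT lung values stand for 6 libraries. Sex and library set cannot be told apart in the difference between them. Both the WT and the ∆Firre embryos came from matings with heterozygous Firre females, and lung libraries were made from 200 ng of RNA, less than the 500 ng used for the other tissues except the PSM (80 ng).

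The mouse lung forms when Nkx2-1-positive cells of the ventral foregut endoderm bud into mesoderm. That mesoderm makes Wnt2, Wnt2b and Fgf10, the epithelium makes Shh, and the exchange between the layers drives branching. Surfactant proteins, which later lower surface tension in the air spaces, begin to be transcribed in the distal epithelium long before birth. Because the tissue was sequenced whole, a low level in bulk cannot separate few expressing cells from little RNA per cell.

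Firre itself checked the genotype labels. It lay between 13.9 and 50.6 FPKM in the 16 WT groups, with 32.0 and 32.6 FPKM in male and female lung, and between 0.00104 and 0.0703 FPKM in the 16 ∆Firre groups. Depth was read only from the smallest steps in the values. The female WT lung had the coarsest step of the WT groups, so that 1 FPKM of a 1-kb transcript corresponded to 47.2 steps there and 92.1 in the male WT lung. The female WT lung also stood apart from the male at 3 loci known to collect ribosomal RNA sequence. AY036118 was at 8151 FPKM there and 624 in the male, Gm42418 at 481 and 46.6, and Lars2 at 505 and 58.9. The highest values of the other WT tissues at these loci were in female heart, at 3771, 233 and 291 FPKM. On the scale of FPKM + 1, no lung-enriched gene differed by 1.5-fold or more between the 2 lung groups, and 65 were higher in the female. The rule took the lower of these 2 values, so genes that differed between them were disfavoured. The part of these loci in the levels of other genes was not tested.

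Of the 4 genes taken as markers of the lung bud, Foxf1, Wnt2 and Sftpc were lung-enriched and Epcam was not. Foxf1, a forkhead factor of the mesoderm around the foregut, was at 89.2 FPKM in male and 75.9 in female lung, and at a median of 0.107 and at most 13.2 (male liver) elsewhere. Wnt2, a ligand of the lung mesoderm, was at 32.6 and 38.6 FPKM, against a median of 0.233 and a maximum of 5.70 in female heart. Sftpc, the surfactant protein C gene of the distal epithelium, was at 10.1 and 12.2 FPKM and did not pass 0.0368 in any other group. The groups of these 3 genes do not overlap, which is what the rule required of them. Epcam, an adhesion molecule of epithelia in general, was at 36.4 and 41.5 FPKM, above all 14 other values but close to the 30.9 of the male PSM, and was not lung-enriched.

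Among the 101 genes, the margin, the log2 difference between the lower lung value and the highest other value, had a median of 1.5. It reached 4-fold for 24 genes, 8-fold for 4 and 16-fold for Cxcl13 alone. Mean lung levels ran from 1.32 to 141 FPKM with a median of 10.8, 52 genes exceeded 10 FPKM in both lung groups, and 29 had a mean under 5 FPKM. The next highest tissue was the heart for 22 genes, the PSM for 20, the forelimb for 18, the liver for 17, the midbrain for 10, the hindlimb for 8 and the forebrain for 6. For 36 genes every other group was below 1 FPKM. By RefSeq, 88 were protein-coding and 7 were long noncoding RNAs, and 6 had no entry. At the threshold itself, the last genes inside were Sfrp2, RP23-396L12.1, Fhod1, Cldn5 and Unc5c, with margins up to 1.02, and the first outside were Rassf10, Pag1, Aplnr, Gpc6 and Gpr17, at 0.999, 0.984, 0.976, 0.974 and 0.965.

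**Figure D1:**
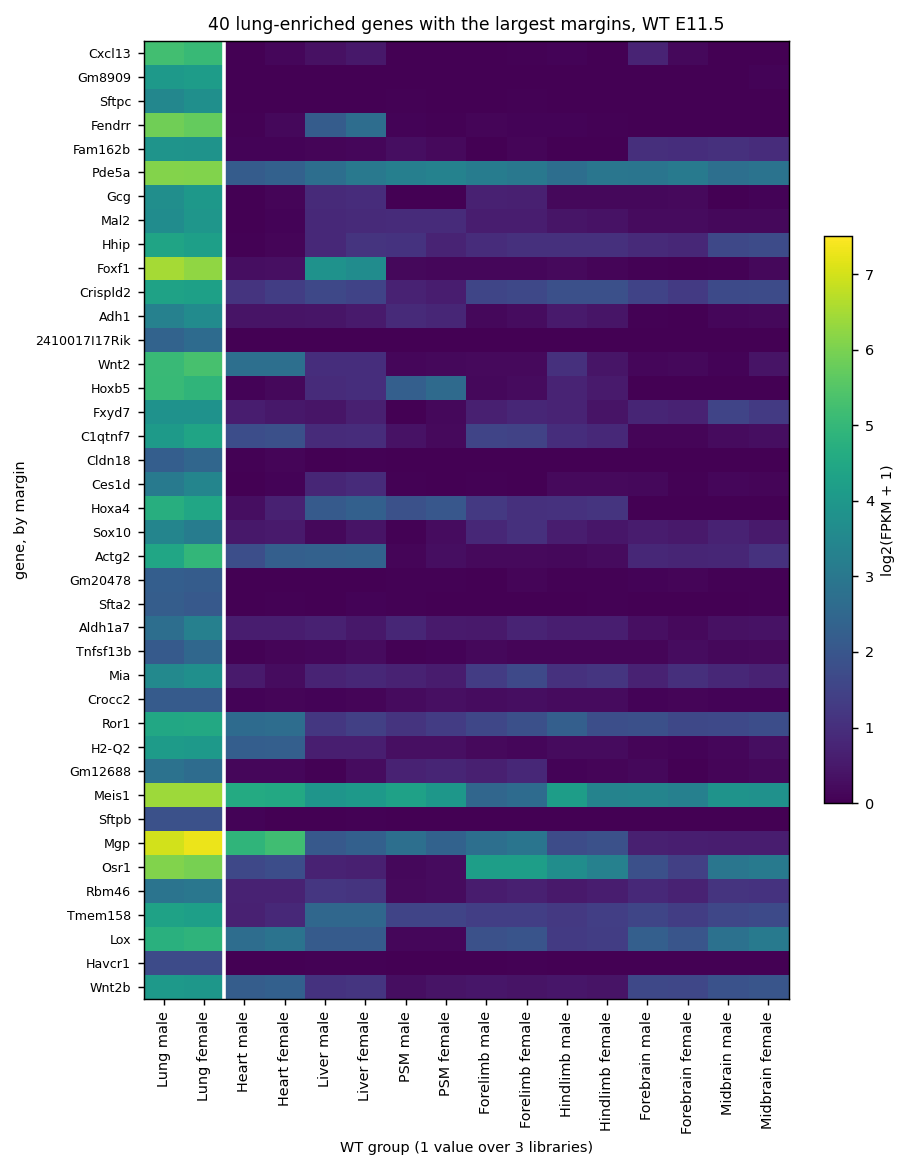
Levels of the 40 lung-enriched genes with the largest margins (rows, by margin) in the 16 WT groups (columns, each 1 value over 3 libraries), as log2(FPKM + 1). The 2 lung columns left of the white line are brighter than every other column in each row, as the rule required; Foxf1, Meis1, Mgp and Pde5a also have visible levels elsewhere, and Gm8909, 2410017I17Rik, Sftpc and Sftpb hardly any.

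Of 17 genes for surfactant and later lung cell types 11 were tested. Of these 2 were lung-enriched, Sftpc and Sftpb, and 4 were above all other groups, against 0.641% and 5.59% of all tested genes. Sftpb, which encodes surfactant protein B, was at 2.64 and 2.65 FPKM and at most 0.0508 elsewhere (margin 1.79). Sftpa1 was at 1.299 and 1.32 FPKM with a maximum of 0.212 in female heart, and its margin of 0.92 fell short of the threshold. Sftpd was at 0 in both lung groups. Among genes of later cell types, Lamp3, a lamellar body gene of type II cells, was at 0.0329 and 0.0337 FPKM, and Scgb3a2, a secretory cell gene, at 0.0494 and 0.0458. Hopx, a type I cell gene, was at 1.09 and 1.11 FPKM, and its highest value was 99.9 in male heart. Of the surfactant protein genes, those of proteins B, C and A1 were thus above 1 FPKM in both lung groups.

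Sfta2, a surfactant-associated protein gene that was in none of the lists, had 3.60 and 3.29 FPKM in lung and at most 0.0445 elsewhere (margin 2.04). Sftpb and Sfta2 are shown with the 250 bases before their start sites, because both windows hold the letters CTCAAG, a core bound by NKX2-1 and written in capitals. The windows, from RefSeq and read 5′ to 3′ on the plus strand of GRCm38.p6, lie at chr6:72304360-72304609 and chr17:35649458-35649707.
Sftpb: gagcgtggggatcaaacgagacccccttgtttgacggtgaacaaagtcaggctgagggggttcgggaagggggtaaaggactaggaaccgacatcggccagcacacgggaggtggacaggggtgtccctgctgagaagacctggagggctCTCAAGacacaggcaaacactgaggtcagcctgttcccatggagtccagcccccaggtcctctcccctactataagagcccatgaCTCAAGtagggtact
Sfta2: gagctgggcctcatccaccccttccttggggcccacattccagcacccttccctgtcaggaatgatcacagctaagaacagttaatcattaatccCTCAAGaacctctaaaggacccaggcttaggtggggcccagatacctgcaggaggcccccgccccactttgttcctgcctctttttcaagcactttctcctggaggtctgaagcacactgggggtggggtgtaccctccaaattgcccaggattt
The matches start 100 and 15 bases before the Sftpb start site and 155 bases before that of Sfta2. Over all member promoters the letters, searched on both strands as CTCAAG and CTTGAG, were found in 9 of 85 windows (10.6%), against 13.3% of all 32851 promoters, which is no higher a share among the members.

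Of 30 lung epithelial genes, transcription factors and others, 3 were lung-enriched (Nkx2-1, Foxp2 and Cldn18), against 0.641% of all tested genes. Above every other group were 8 of the 30, against 5.59% of all tested genes. The median difference of the list between lung and the other tissues was 1.73 on the log2 scale, against 0.04 over all tested genes. Nkx2-1, the homeobox factor that marks the lung and thyroid endoderm, was at 25.3 and 23.6 FPKM. Other expression of Nkx2-1 was in the forebrain, at 9.88 and 8.60 FPKM, and the midbrain, at 4.73 and 5.92, and the remaining groups did not pass 0.103. Foxp2, a forkhead factor of the distal airway epithelium, was at 43.8 and 39.1 FPKM against at most 18.0 in female midbrain, and lost its call when globin genes were left out. Cldn18, a tight junction claudin of lung and stomach, was at 3.71 and 4.59 FPKM and at most 0.0655 elsewhere (margin 2.14). Many genes of this list were not highest in lung: Id2 reached 185 FPKM in male heart against 132 and 137 in lung, and Krt8 52.0 in male liver against 32.5 and 34.5. Foxa2, the pioneer factor of endoderm, was at 12.4 and 11.7 FPKM and level with the 12.1 of male midbrain.

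The largest list difference was that of the lung mesenchyme, with a median difference of 3.17 on the log2 scale. Of its 22 genes, 14 were above all other groups and 8 were lung-enriched, against 5.59% and 0.641% of all tested genes. The list holds the markers Foxf1 and Wnt2 and, like the others, was chosen with earlier results of these data known, so these shares are a description only. Besides Foxf1 and Wnt2 the lung-enriched ones were Osr1, Tbx2, Hoxa5, Hoxb5, Hhip and Wnt2b. Osr1, a zinc finger factor of foregut and kidney mesoderm, was at 67.1 and 61.0 FPKM, with 17.6 in female forelimb as the next value. Tcf21, a basic helix-loop-helix factor of visceral mesoderm, was at 51.2 and 59.5 FPKM but also at 42.4 and 40.5 in heart. Meis1, a TALE homeobox cofactor of Hox proteins, was lung-enriched at 83.0 and 84.3 FPKM (margin 1.81) although the male heart had 22.9. Tshz3, Hic1 and Foxl1, all transcriptional regulators, were lung-enriched too, with margins of 1.64, 1.63 and 1.43.

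Foxf1, Fendrr and Foxl1 are neighbors on chromosome 8 and were all lung-enriched. Fendrr, a long noncoding RNA transcribed away from Foxf1, was at 57.7 and 51.7 FPKM in lung, with a median of 0.0387 elsewhere and a maximum of 5.44 in female liver (margin 3.03). Foxf1 starts 1276 bases from Fendrr, and Foxl1, at 11.0 and 8.14 FPKM, lies 39531 bases beyond Foxf1. Liver was the next highest tissue for Foxf1 and Fendrr and the PSM for Foxl1. The 250 bases before the start of Fendrr (GRCm38.p6 chr8:121083111-121083360, minus strand, read 5′ to 3′) are shown because they face Foxf1 and hold the only forkhead core found among the member windows. The core was searched as TGTTTAC and its reverse complement GTAAACA, and the match is in capitals.
Fendrr: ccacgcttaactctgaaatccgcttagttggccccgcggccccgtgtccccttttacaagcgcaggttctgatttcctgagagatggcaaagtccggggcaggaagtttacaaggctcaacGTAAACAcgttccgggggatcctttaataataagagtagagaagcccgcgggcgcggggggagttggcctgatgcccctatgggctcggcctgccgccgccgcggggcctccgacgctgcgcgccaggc
That core was in 1.18% of the member windows and in 3.17% of all promoters. The GLI core TGGGTGGTC and the T-box core AGGTGTGA were in none of the member windows and in 0.225% and 1.12% of all promoters.

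Of the 95 lung-enriched genes placed on the genome, 25 (26.3%) had another of them within 500 kb, whereas 914 of 14963 other tested genes (6.11%) had one that near. The neighbors included the Hoxa4 and Hoxa5 pair and the Hoxb4 and Hoxb5 pair. Wnt2 and the chloride channel gene Cftr were 137915 bases apart, Tbx2 lay 56935 bases from the noncoding Bcas3os2, and Meis1 2818 bases from the noncoding 8430419K02Rik. Cftr was low, at 1.39 and 1.53 FPKM. The 2 shares describe different sets, and gene families in clusters add to the first.

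Among Wnt ligands a few were above all other tissues and others were low or at 0. Of 19 Wnt ligands, 2 were lung-enriched, Wnt2 and Wnt2b, and 3 were above all other groups, against 0.641% and 5.59% of all tested genes. The list median was -0.27 on the log2 scale, below that of all genes. Wnt2b was at 15.5 and 14.6 FPKM and at most 3.92 in female heart (margin 1.66). Wnt11 was above all other groups, at 19.0 and 18.5 FPKM against 14.1 in male forelimb, and Wnt7b, an epithelial ligand of the lung, was at 22.9 and 20.8 FPKM but at 45.1 in male forebrain. Wnt5a was at 4.64 and 3.63 FPKM against 130 in female PSM, and Wnt3a and Wnt8a were at 0 in both lung groups. Among 34 receptors and inhibitors only Sfrp2, a secreted Wnt antagonist, was lung-enriched, again beside 0.641% of all tested genes. Sfrp2 was at 92.0 and 99.9 FPKM, just past the threshold over the 45.4 of male hindlimb, and its margin was 0.76 in the ∆Firre groups. Ror1, a Wnt5a receptor tyrosine kinase that was not in that list, was at 21.7 and 22.1 FPKM with 5.41 in female heart (margin 1.82). Axin2, a common Wnt target, was not high in lung: 14.8 and 12.3 FPKM against 34.7 in female midbrain.

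Of 14 Hedgehog pathway genes 4 were above all other groups, against 5.59% of all tested genes. The list median was 0.25 on the log2 scale, against 0.04 over all tested genes. Hhip, which binds Hedgehog ligands and is itself induced by them, was at 19.9 and 17.8 FPKM and at most 2.30 in female midbrain (margin 2.51). Hhip, Ptch1 and Gli1, known targets of the pathway, were each above all 14 other values. Ptch1 was at 53.0 and 45.5 FPKM against 27.2 in male midbrain, and Gli1 at 42.0 and 33.0 against 25.8 in male forelimb. Shh, the ligand made by the epithelium, was at 9.51 and 8.66 FPKM, below the 14.1 and 12.1 of the midbrain. Hhip was the only lung-enriched gene of the 14 in the list, against 0.641% of all tested genes.

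Of 19 retinoic acid genes, 18 of them tested, 5 were above all other groups, against 5.59% of all tested genes. None was lung-enriched, which is near the 0.641% of all tested genes for so short a list. The list median was 1.04 on the log2 scale, against 0.04 over all tested genes. Aldh1a2, which makes retinoic acid, was at 67.3 and 71.8 FPKM with the PSM next at 57.1 and 49.9. Rdh10, which supplies its substrate, was at 13.1 and 14.8 FPKM against 6.42 in male PSM (margin 0.92), and Rarb, a receptor that retinoic acid induces, at 18.3 and 21.0 against 10.6 in female heart. Adh1 and Aldh1a7, a pair of dehydrogenases outside that list, were lung-enriched with margins of 2.40 and 1.91.

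No Fgf ligand and no Bmp gene was lung-enriched, which is near the 0.641% of all tested genes for lists of this size. The counts above all others in these lists stand beside 5.59% of all tested genes, and that of the Fgf ligands lies near it. Of 22 Fgf ligands, 14 of them tested, Fgf11 alone was above all other groups, at 4.30 and 4.49 FPKM, and Fgf10, the ligand that draws out the buds, was at 6.51 and 6.42 FPKM, below both limb buds. Of 14 Fgf receptors and targets, Etv5 and Fgfr2 were above all others. Etv5, a target of Fgf signals in the bud tips, was at 53.1 and 44.8 FPKM against 34.5 in female PSM, and Fgfr2, the receptor of Fgf10, at 40.5 and 39.8 against 35.8 in female midbrain. Of 26 Bmp pathway genes 4 were above all others, and Bmp4 was at 21.5 and 19.5 FPKM against 39.2 in female hindlimb. Of the 6 Iroquois genes, which pattern several organs, none was above all others, and Irx2 was the highest in lung at 17.4 and 15.1 FPKM.

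**Figure D2:**
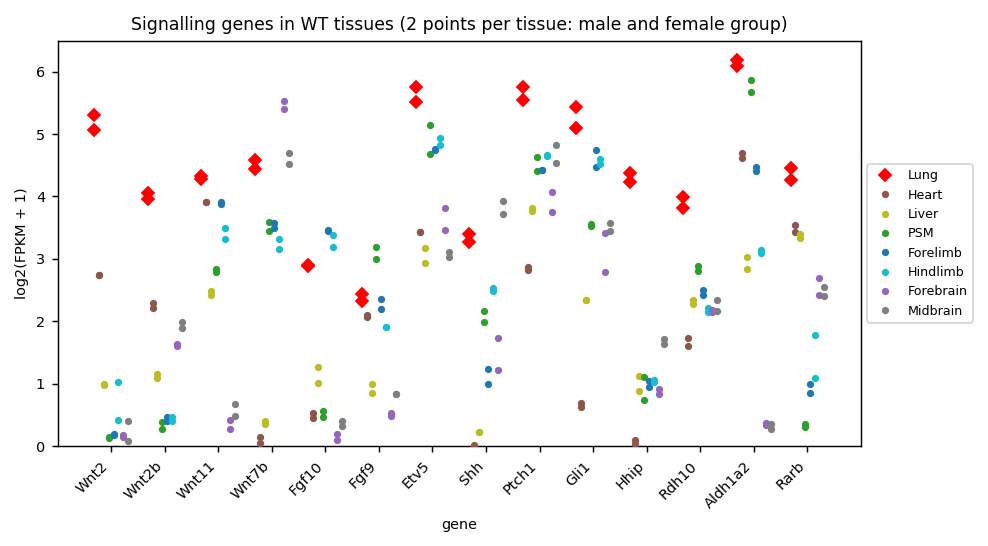
Levels of 14 signaling genes as log2(FPKM + 1) in the 8 WT tissues, with 2 points per tissue, the male and the female group, and red diamonds for lung. Lung is clear of all other tissues for Wnt2, Wnt2b and Hhip, ahead by less than 2-fold for Ptch1, Gli1, Rdh10, Rarb and Aldh1a2, and behind the limb buds for Fgf10 and the midbrain for Shh.

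Of 39 Hox genes 4 were lung-enriched, all of groups 4 and 5: Hoxb5 (32.4 and 28.8 FPKM, margin 2.32), Hoxa4 (24.8 and 20.7, 2.12), Hoxa5 (45.2 and 47.6, 1.38) and Hoxb4 (20.04 and 19.1, 1.15). The PSM was next highest for Hoxb5, Hoxa5 and Hoxb4, and the liver for Hoxa4. The 4 lung-enriched ones stand beside 0.641% of all tested genes. In all, 9 of the 39 were above every other group, against 5.59% of all tested genes, and the list median was 0.27 on the log2 scale, against 0.04. Hoxb2, at 33.6 and 35.9 FPKM, and Hoxb6, at 22.1 and 23.2, were above the 23.0 and 16.5 of the PSM but short of 2-fold. Going toward the 5′ end of the clusters, Hoxa6, Hoxa7 and Hoxb7 were at 3.27 and 2.79, 1.69 and 1.54, and 1.53 and 1.59 FPKM, and Hoxa9 and Hoxb9 were below 0.2 FPKM. Of the Hoxd cluster, Hoxd3 was at 2.80 and 2.58 FPKM and Hoxd4 at 0.868 and 0.539. Hoxc9, Hoxc11, Hoxc12, Hoxc13 and Hoxb13 were at 0 in both lung groups. All Hox genes above 5 FPKM in both lung groups belonged to group 5 or below, apart from Hoxb6, while limb buds and PSM also held groups 9 to 13, with up to 228 FPKM for Hoxd13 in male forelimb. Hoxb5 and Hoxb4, like Hoxa4 and Hoxa5, lie beside antisense transcripts, and the sources used here do not say whether reads were counted by strand.

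**Figure D3:**
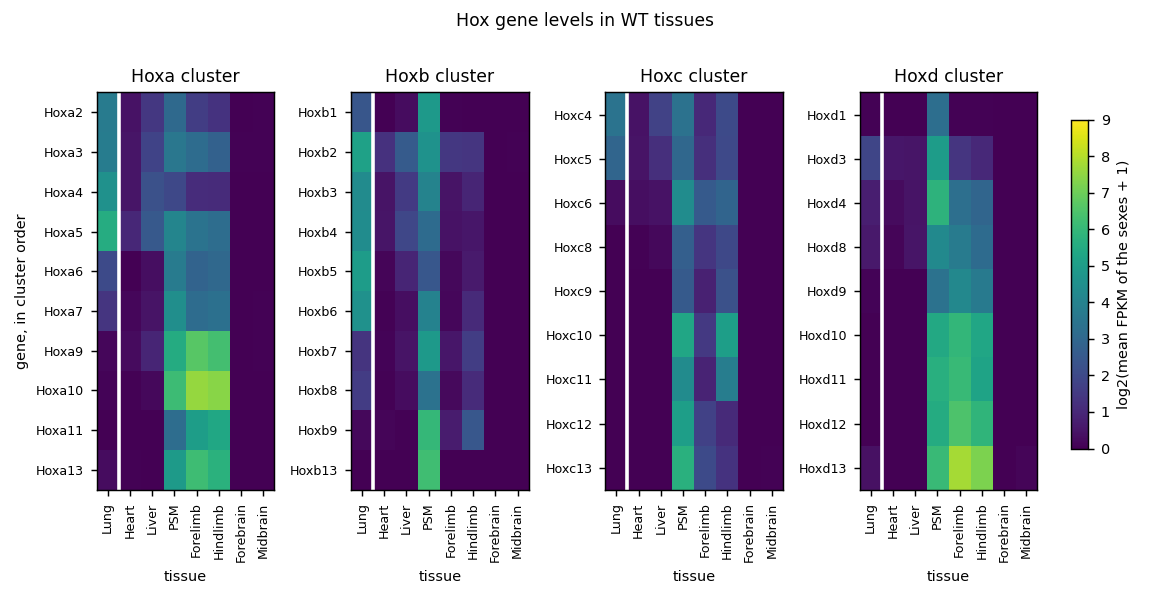
Levels of Hox genes in 8 WT tissues (columns), as log2 of the mean FPKM of the sexes plus 1, with 1 panel per cluster and genes in cluster order. In lung (left of the white line) the bright genes are Hoxa2 to Hoxa5, Hoxb2 to Hoxb6 and Hoxc4 to Hoxc5, and the genes below them in each panel are darker; PSM and limb buds are bright for the lower genes.

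Of 17 T-box genes, 15 of them tested, 1 was lung-enriched and 2 were above all other groups, against 0.641% and 5.59% of all tested genes. Tbx2, a repressor that keeps lung mesenchyme dividing, was the lung-enriched one, at 50.1 and 47.2 FPKM over 16.5 in male forelimb (margin 1.47). Tbx3 was at 20.7 and 18.1 FPKM against 13.1 in female forelimb. Tbx4, known from the hindlimb, was at 41.4 and 42.3 FPKM in lung, 56.8 and 54.9 in hindlimb and 5.62 and 5.63 in forelimb. Tbx5, known from the forelimb and heart, was at 50.7 and 48.1 FPKM in lung, 56.4 and 56.0 in forelimb and 20.4 and 20.9 in heart. Lung was the tissue in which both Tbx4 and Tbx5 were above 40 FPKM.

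Smooth muscle, matrix and vessel genes added further members, and the counts of their lists stand beside 0.641% of all tested genes. Of 11 smooth muscle and tracheal cartilage genes, 10 of them tested, 2 were lung-enriched. Actg2 and Myh11, the enteric actin and the smooth muscle myosin heavy chain, were lung-enriched at 20.6 and 30.4 FPKM (margin 2.09) and 6.996 and 9.59 FPKM (margin 1.58). Acta2 and Tagln, which early heart muscle shares, were at 65.7 and 97.9 and at 20.5 and 25.4 FPKM, far under the 800 and 322 of male heart. Pde5a, the cyclic GMP phosphodiesterase of smooth muscle, was at 67.5 and 67.1 FPKM with 9.12 in female PSM (margin 2.75). Mgp, a matrix inhibitor of calcification, had the highest lung level of all members, 126 and 155 FPKM, with 35.9 in female heart. Of 23 basement membrane and elastic fibre genes 3 were lung-enriched. They were Lox, which crosslinks elastin and collagen (26.2 and 28.3 FPKM), Frem2, a basement membrane protein (38.3 and 40.6), and the integrin Itga8 (18.1 and 20.9). Of 16 endothelial genes only Cldn5, a tight junction claudin, was lung-enriched, at 29.4 and 29.3 FPKM and a margin of 1.01; its margin was 0.80 in the ∆Firre groups, and its call was lost under median-of-ratios scaling, which sets tissues equal at their median gene. Of 12 mesothelial genes none was, which is near that share of 0.641% for so short a list, and Upk3b, Wt1 and Upk1b were highest in heart.

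Sox10 and Dbh were the 2 lung-enriched genes in the list of 12 neural crest and autonomic neuron genes. Of this list 11 genes were tested, and the lung-enriched share of all tested genes was 0.641%. Sox10, a factor of neural crest cells and glia, was at 9.57 and 7.81 FPKM and at most 1.04 in female forelimb (margin 2.11). Dbh, which makes noradrenaline, was at 2.46 and 1.85 FPKM and at most 0.229 (margin 1.22). Tubb3, a tubulin of neurons in general, was at 7.95 and 5.83 FPKM against 715 in male midbrain. Stmn2 and Elavl4, likewise neuronal, were at 3.63 and 3.53 and at 2.54 and 2.14 FPKM, against 204 and 58.0 in male midbrain.

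The largest margin of all belonged to Cxcl13, a chemokine that attracts B cells and lymphoid tissue inducer cells. It was at 36.2 and 32.5 FPKM in lung, with a median of 0.0214 and a maximum of 0.675 (male forebrain) elsewhere, a margin of 4.32. The 250 bases before its start (GRCm38.p6 chr5:95956689-95956938, plus strand, 5′ to 3′) are shown as the window of the gene with the largest margin, with a TATAAA match in capitals that begins 46 bases before the start.
Cxcl13: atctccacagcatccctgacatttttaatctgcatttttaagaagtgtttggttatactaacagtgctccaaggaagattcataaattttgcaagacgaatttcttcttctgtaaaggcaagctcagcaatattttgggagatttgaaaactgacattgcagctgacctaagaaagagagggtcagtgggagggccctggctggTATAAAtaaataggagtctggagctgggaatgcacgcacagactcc
TATAAA or its reverse complement TTTATA was in 12.9% of the member windows and in 12.4% of all promoters. The member windows were richer in G and C than all promoters, with a median of 58.4% against 52.4% and 9 CpG against 6. These windows covered 67 of the 101 genes.

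The second margin, 3.98, was that of Gm8909, at 15.7 and 16.6 FPKM and no more than 0.0578 elsewhere. Gm8909, 2410017I17Rik and H2-Q2 are class I histocompatibility genes or their neighbors on chromosome 17, and Gm8909 and 2410017I17Rik overlap. Near-identical copies can share reads in this family, so the values of these 3 genes are uncertain. Without them 98 lung-enriched genes remained.

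Gcg, the proglucagon gene of endocrine cells in pancreas and gut, was also lung-enriched, at 11.97 and 14.8 FPKM and at most 0.944 in female liver (margin 2.74). In a list of 17 pancreas, stomach and gut hormone genes, made after its value was seen, Cckar (6.61 and 9.44 FPKM) and Rfx6 (1.60 and 1.47 FPKM) were lung-enriched as well. Of the 11 tested, 3 were lung-enriched and 5 were above all other groups, against 0.641% and 5.59% of all tested genes. Ins1, Ins2 and Ptf1a were at 0 in both lung groups, and Pdx1, the pancreatic homeobox factor, was at 0.0141 and 0 FPKM. Of 14 genes of oesophagus and other foregut none was lung-enriched, which is near the 0.641% of all tested genes for so short a list. Barx1, a factor of stomach mesenchyme, was at 5.70 and 3.33 FPKM, close to the 6.10 of male liver.

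Others of the 40 largest margins do not fall into these groups. Fam162b, which lies near Rfx6 on chromosome 10, was at 13.7 and 13.5 FPKM (margin 2.81), and Mal2, a membrane trafficking protein of epithelia, at 11.54 and 14.4 (2.72). Crispld2, a secreted glycoprotein of lung mesenchyme, was at 19.2 and 18.1 FPKM (2.41). C1qtnf7, Fxyd7 and Ces1d had margins of 2.24, 2.29 and 2.14, and Tnfsf13b, Mia, Crocc2, Rbm46, Tmem158 and Havcr1 had margins between 1.67 and 1.89. The predicted genes Gm20478 and Gm12688 had margins of 2.07 and 1.81.

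Among members of smaller margin, the following were named after their values were seen, for what they are known to do. Mylk, the kinase that starts smooth muscle contraction, was at 18.2 and 20.6 FPKM (margin 1.65), and Chrm3, the muscarinic receptor of airway muscle, at 2.61 and 3.12 FPKM (1.36). Krt7, a keratin of simple epithelia, was at 29.5 and 30.7 FPKM over 12.1 in male PSM (1.22), and Crb3, an apical polarity protein, at 7.87 and 8.32 FPKM (1.20). Thbd, the thrombomodulin of vessels, was at 21.4 and 25.6 FPKM (1.17, not called under median-of-ratios scaling), and Pgf, a growth factor of the Vegf family, at 15.0 and 14.9 FPKM (1.45). Cxcl15, a chemokine known from lung, was at 1.19 and 1.45 FPKM (1.12), and Egfr, the epidermal growth factor receptor, at 9.04 and 9.55 FPKM (1.09).

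The ∆Firre groups took no part in the choice of genes, and most of the calls were met there too. In the ∆Firre groups alone 99 of 15782 genes met the rule (0.627%), and 90 of them were among the 101, which is 89.1% of the WT list and 90.9% of the ∆Firre list. The rule was past its threshold in both genotypes for all genes with a WT margin over 1.38. Of the 101 genes 100 were above all 14 other ∆Firre values, as 5.53% of all tested genes were, and the median margin was 1.45. Lung levels of the members differed between ∆Firre and WT by -0.34 to 0.39 on the log2 scale with a median of -0.02, and on that scale none by 1.5-fold or more. Nkx2-1 was the only member not above all 14 other ∆Firre values. It was at 21.4 and 24.1 FPKM in ∆Firre lung, close to WT, but at 20.8 and 26.1 FPKM in ∆Firre forebrain, against 9.88 and 8.60 in WT forebrain. Its margin was therefore -0.28 in the ∆Firre groups. The other 10 that missed the threshold there had margins from 0.62 (Hoxb4) to 0.99 (Hoxa5). The 9 genes called only in ∆Firre had WT margins between 0.77 and 0.96.

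**Figure D4:**
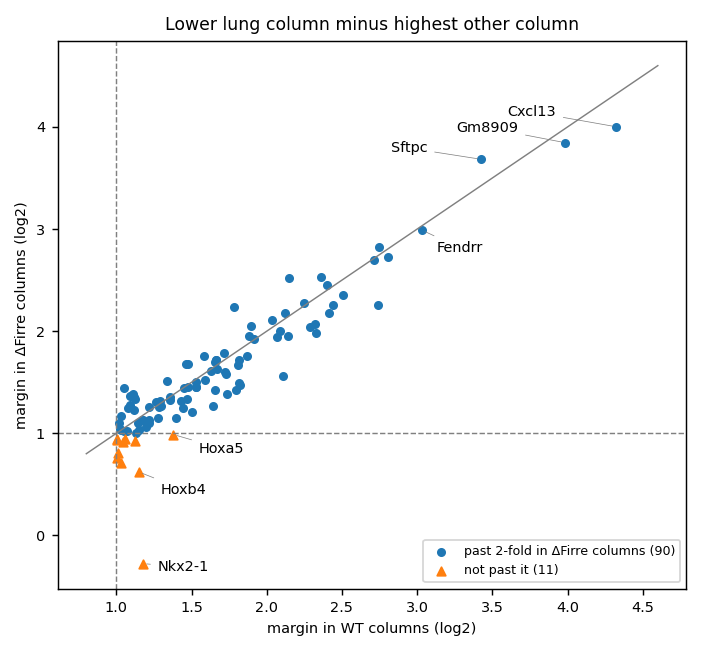
Margin of each of the 101 lung-enriched genes in the WT groups (x axis) and in the ∆Firre groups (y axis), both log2; the diagonal marks equal margins and the dashed lines the 2-fold threshold. Points run along the diagonal; 11 orange triangles lie under the threshold in ∆Firre, and Nkx2-1, at -0.28, is the only point below 0.

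Further genes were shared by lung with 1 other tissue or tissue pair, meaning that the lung and that partner were together 2-fold above the rest. The limb buds and the brain regions each bring 4 groups to this rule and the other partners 2, so their counts are not on equal terms. The heart shared 35 (0.222% of tested genes), the PSM 18 (0.114%), the limb buds 16 (0.101%), the brain regions 16 (0.101%) and the liver 8 (0.0507%), and in the ∆Firre groups 29, 16, 10, 12 and 7 of them met the same rule. With the heart lung shared Smpx, a muscle protein (19.6 and 21.3 FPKM in lung, up to 360 in heart), Cnn1, Ppp1r3b, Tcf21, Wisp1 and Ccdc141. With the PSM it shared mainly Hox transcripts, led by the antisense Hoxb3os at 33.7 and 32.4 FPKM, Hoxb6, Hotairm1, Hoxb3, Hoxb1 and Hoxb2. With the limb buds it shared Tbx4, Twist2, Fgf10, Pdgfc and Sned1, with the brain regions Ly6h, Cdh8, Nefm, Nr2f1 and Ralyl, and with the liver Akr1c19, Itih2, Cd55, Sptssb, Hlx and Barx1. Smpx belongs to the 14 cardiomyocyte genes, whose sum was 75.3 and 80.9 FPKM in lung, 25544 and 25601 in heart, 83.5 and 97.7 in forelimb and between 3.35 and 51.8 in the other tissues. Of these 14 genes 7 were above 1 FPKM in both lung groups, led by Myl7 at 37.2 and 38.9 FPKM, while the defining genes Nppa and Myl2 were at 0.0518 and 0 and at 0.111 and 0.318 FPKM. Of the genes shared with liver, Itih2 was at 5.94 and 2.69 FPKM in male and female lung and up to 366 in liver. Akr1c19 was at 4.30 and 5.35 FPKM and up to 29.6 in liver. The part of heart muscle RNA in the genes shared with heart was not tested, nor was that of liver RNA in the genes shared with liver.

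Lung had few genes of its own in the other direction. Sall1 alone was 2-fold below all other groups (0.00634% of tested genes). This zinc finger factor of kidney and limb development was at 0.279 and 0.170 FPKM in lung and between 2.48 (female liver) and 85.3 (female PSM) elsewhere, a gap of 1.44 on the log2 scale, and of 1.64 in the ∆Firre groups. By any margin 211 genes (1.34%) were below all other groups in both lung groups. Next after Sall1 came Bdh1, Cited2 and Vcam1, with gaps of 0.90, 0.79 and 0.64. Under the same rule the genes above the rest numbered 694 in liver, 539 in heart, 413 in the brain regions, 127 in the PSM and 53 in the limb buds, against the 101 of lung. The brain regions and limb buds each comprise 4 groups, so their counts come from another number of values. Over 15768 genes the log2 levels of lung correlated most with those of hindlimb (Pearson r = 0.951) and least with those of liver (0.888), a description across genes that are not independent.

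The male and female WT lung differed little outside a few genes. The SD of their log2 difference was 0.20 over tested genes, and the median absolute difference was 0.08 over all genes and 0.10 over the members, where Aldh1a7 differed most (5.56 and 8.70 FPKM). In all, 44 genes differed by 2-fold or more, 26 of them higher in the male. They included Xist and the Y-linked Eif2s3y and Ddx3y, and also liver genes: Afp was at 68.6 FPKM in male and 3.40 in female lung and Alb at 16.2 and 0.473. Summed over 16 hepatocyte genes, male lung had 150.3 FPKM and female lung 15.2, with 12113 and 12147 in liver and 4.28 to 17.2 in the other tissues. In ∆Firre lung Afp was at 73.4 and 52.3 FPKM. None of the 16 hepatocyte genes was lung-enriched, but with liver among the other tissues the rule left them little room to be. The part of liver RNA in other values was not tested. The 12 erythroid genes summed to 13001 FPKM in male and 19419 in female lung, between the limb buds and the heart. None of these was lung-enriched, nor was any of 11 macrophage genes. Sums were higher in heart for the erythroid list and in liver for the macrophage list, so the rule left these genes little room too.

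**Figure D5:**
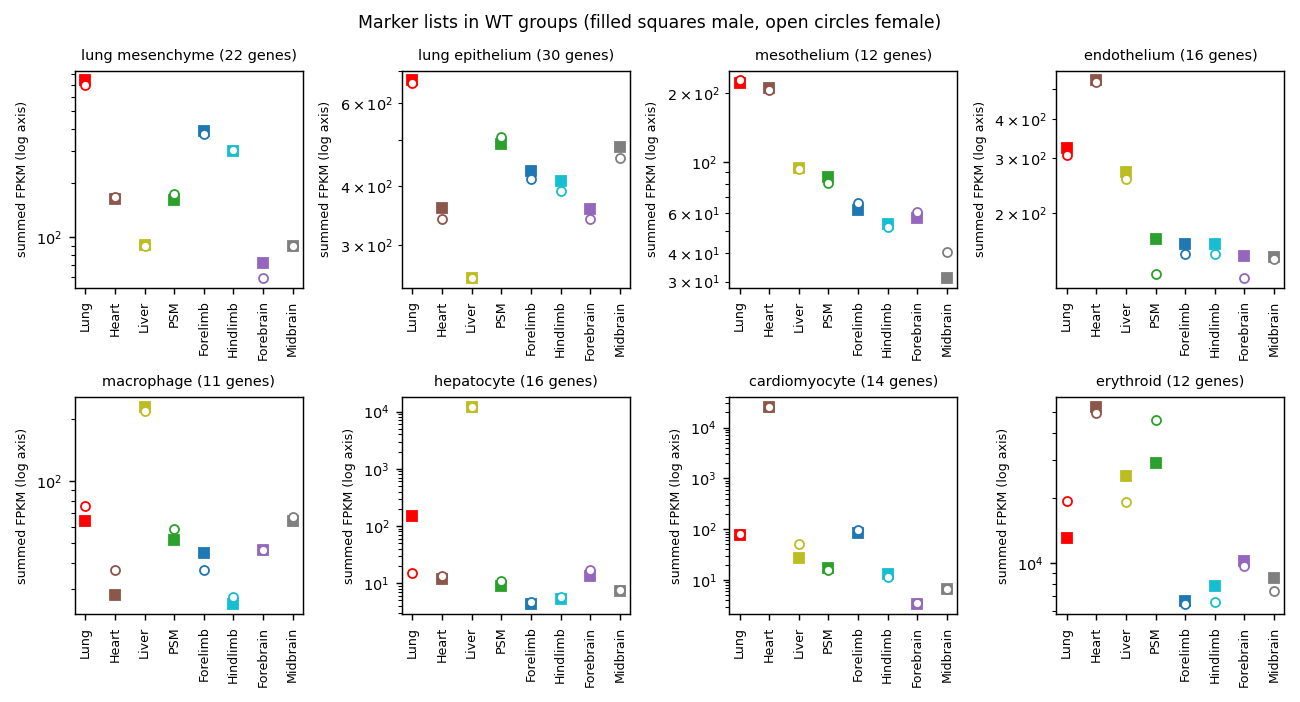
Summed FPKM (log axis) of 8 marker lists in the 16 WT groups, filled squares for male and open circles for female groups. Lung leads for the lung mesenchyme and epithelium lists and, narrowly, for mesothelium; in the hepatocyte panel the male lung lies at 150.3 and the female lung at 15.2, and the cardiomyocyte sums of lung are far below those of heart.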

How the data were processed

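Poly(A)+ RNA of E11.5 mouse tissues was sequenced on an Illumina HiSeq, with 3 libraries per group. The authors aligned the reads to mm10 with TopHat2 2.1.1 and Bowtie2 2.2.8, with GENCODE gene models, and computed the deposited FPKM values with Cuffdiff 2.2.1 over the 3 libraries of each group. Of its columns 32, 1 per tissue, sex and genotype, were used, and 16 that merge the sexes were not. No value per library was analysed here. Whether reads were counted by strand is not given in the sources used here.

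Values were compared as log2(FPKM + 1), so fold changes understate those of low genes. Genes had to exceed 1 FPKM in at least 1 group, and a gene was called past 2-fold. No test was run, since groups hold 1 value each. Depth was read from the lowest step of FPKM times length over 6983 genes with a single transcript of 0.8 to 8 kb. The calling script was tested on simulated data. Coordinates and promoters came from RefSeq (GRCm38.p6, the assembly of mm10).

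Named genes were the 4 markers, the 40 lung-enriched genes of largest margin, the lung-enriched members of each list with up to 6 others of highest lung level and those at 0, the genes on either side of the threshold, up to 12 lung-depleted and up to 6 shared genes per partner, and those that differed most between the lung groups. Members and lists were chosen with earlier results of these data known. Alternatives were the pseudocount, the fold, the sexes apart, another scaling, globin genes left out, no filter and each other tissue left out. Analyses used Python 3.11.15, numpy 2.4.6 and pandas 2.3.3. A few genes that these rules would name are not reported here.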

Additional observations from a re-analysis of the deposited data

Results flagged for a closer look

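Nkx2-1 had opposite signs in the genotypes. Its lower lung value was above every other WT value (margin 1.18 on the log2 scale) but below the female ∆Firre forebrain (-0.28). The lung values were 25.3 and 23.6 FPKM in WT and 21.4 and 24.1 FPKM in ∆Firre, and the forebrain values 9.88 and 8.60 against 20.8 and 26.1 FPKM. The difference between the genotypes was not tested.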

How the results depend on the processing

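No paired analysis was possible because the table holds 1 value per group, with no column per library. For the same reason no library could be left out. Of 101 lung-enriched genes, 90 were called with median-of-ratios scaling, and of the 11 lost, 8 had the heart as next highest tissue. That scaling divided the male and female heart values by 0.872 and 0.858 and the lung values by 1.02 and 1.03. Heart values thus rose against lung, while the median difference between lung and all other tissues moved by -0.02. The count was 164 with a pseudocount of 0.1 FPKM, 208 at 1.5-fold, 24 at 4-fold and 158 without the heart. The other alternatives gave 90 to 144. The single lung-depleted gene, Sall1, was joined by others to make 4 with a pseudocount of 0.1 FPKM, 4 at 1.5-fold, 4 in female groups alone, 5 without the liver, and 2 without the forebrain, the midbrain, the forelimb, the PSM or the heart; at 4-fold there was 0. Genes shared with heart, liver, limb buds and brain regions numbered 76, 31, 31 and 58 with a pseudocount of 0.1 FPKM and 104, 28, 51 and 54 at 1.5-fold, and those shared with the PSM 28 at 1.5-fold. In settings chosen after seeing the data, 170 genes differed by 2-fold between the lung groups with a pseudocount of 0.1 FPKM, 43 did under median-of-ratios scaling, and 91 members passed in ∆Firre without the forebrain. The list medians moved by less than the SD of the difference between the lung groups. Member margins moved by more than that SD for 64 genes with a pseudocount of 0.1 FPKM and for 13 under median-of-ratios scaling. None changed sign, but with margins of at least 1 neither alternative could bring that about. Low levels and coarser steps in female lung limit genes near 1 FPKM.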
